A study of Mus musculus with 11 samples.

Results

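The genes described here encode the proteins of the cytoplasmic ribosome. They were chosen by symbol, as Rps or Rpl with a number and at most an a, l or x after it, together with Rplp0, Rplp1, Rplp2 and Rpsa, and without Rps27l and names marked as pseudogenes. The pattern found 81 of the 47517 genes of the count table, 31 with small subunit and 50 with large subunit names. They lie on 19 chromosomes. RNA was taken from forelimb buds of C57BL/6 mouse embryos at E10.5. The 6 mutant embryos were Gmnn f/f; Prx-Cre and the 5 control embryos were Gmnn +/f; Prx-Cre, so that all embryos carried the Cre transgene and at least 1 floxed allele. Gmnn encodes the replication licensing inhibitor Geminin. Prx-Cre is known as a driver for limb mesenchyme, and the ectoderm, blood and vessels of the bud, whose RNA is in the libraries too, are not its target. Embryos were matched by litter. Litter A gave controls 1 and 2 and mutants 1 and 2, litter B gave control 3 and mutant 6, litter C gave control 4 and mutant 5, and litter D gave control 5 and mutants 3 and 4. Of the 81 genes, 77 had enough reads to be tested.

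The cytoplasmic ribosome joins a small (40S) and a large (60S) subunit, each built from ribosomal RNA and a fixed set of proteins, nearly all of them present once per ribosome. In vertebrates, the mRNAs of these proteins begin with a C followed by an uninterrupted run of pyrimidines, the TOP motif, through which the kinase mTOR and the RNA-binding protein Larp1 control their translation together. Most of the genes also have many processed pseudogenes, which are intronless copies of the mRNA inserted elsewhere in the genome. Loss of 1 copy of several of these genes causes Diamond-Blackfan anaemia in people, and mouse mutants of some have skeletal, digit or pigment defects.

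The start sites are shown because a pyrimidine run there is what these mRNAs are known to share. RefSeq promoter windows of the GRCm38.p6 build were matched for 59 of the 81 genes, giving 70 promoters. Each sequence below is the 30 bases around an annotated start, 15 on either side, on the strand of the gene. Capitals mark matches to any of 4 pyrimidine words of 5 bases, spelled out after the sequences, which were searched on the sense strand only and could overlap each other. Rpl38, Rpl35, Rpl15 and Rps6 show the run and were picked as examples. Rps13, Rpl5 and Rps2, at the ends of the range of fold changes described below, have no match to these words in the window. Only 30 of the 59 genes had a match, so lacking 1 is not particular to these 3. Whether a match goes with the fold change was not tested.
Rpl38, chr11:114668565-114668594, plus strand: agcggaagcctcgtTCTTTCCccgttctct
Rpl35, chr2:39005117-39005146, minus strand: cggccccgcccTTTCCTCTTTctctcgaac
Rpl15, chr14:18270972-18271001, minus strand: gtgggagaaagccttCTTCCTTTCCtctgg
Rps6, chr4:86857353-86857382, minus strand: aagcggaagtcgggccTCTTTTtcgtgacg
Rps13, chr7:116334176-116334205, minus strand: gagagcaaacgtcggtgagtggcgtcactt
Rpl5, chr5:107900513-107900542, plus strand: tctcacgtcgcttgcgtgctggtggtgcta
Rps2, chr17:24720048-24720077, plus strand: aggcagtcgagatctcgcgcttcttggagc
The word CTTTT was found in 8.57% of the 70 promoters and in 3.15% of all 32851 promoters of the same table. The word TCTTT was found in 15.7% against 3.53%. The word CTTCC was found in 18.6% against 6.63%, and the word TTTCC in 24.3% against 4.58%. At least 1 of the 4 words was found in 44.3% against 15.1%. Over the whole window of 300 bases and both strands, CGGAAG, the core of sites for ETS factors, was found in 60.0% against 16.9%. The YY1 word AAGATGGC was found in 10% against 2.75%, and the TATA word TATAAA in 8.57% against 13.6%. A match is a match of letters and says nothing of binding.

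Reads of this gene family are hard to place, which sets how far a level can be read. A window of coding sequence from Rps6 (a small subunit protein phosphorylated by S6 kinase), Rpl23a (at the exit of the nascent chain) and Rps12 (in the head of the small subunit) is given below in the GRCm38 build. Each is 50 bases long and lies within 1 exon on the minus strand.
Rps6, chr4:86854774-86854823: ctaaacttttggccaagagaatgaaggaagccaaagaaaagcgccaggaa
Rpl23a, chr11:78181504-78181553: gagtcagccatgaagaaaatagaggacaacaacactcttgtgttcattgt
Rps12, chr10:23785224-23785273: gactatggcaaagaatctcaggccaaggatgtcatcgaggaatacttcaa
The same 50 bases occur without a mismatch in annotated transcripts of 9 other genes for Rps6, of 18 for Rpl23a and of 22 for Rps12. Only 15.4% of all 50-base windows of the Rps6 mRNA, 14.3% of those of Rpl23a and 9.89% of those of Rps12 were found in no other annotated gene. The share was 6.16% for Rpl5, 7.87% for Rpl10, 17.04% for Rps13 and 21.0% for Rps2. It was 92.1% for Rpl8.

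Counted levels differed between the genes by 3 orders of magnitude. Per kilobase of exon, the highest level was 3537 CPM ± 537 (SD, n = 11) for Rpl8, a protein near the peptidyl transferase centre. Rpl4 and Rplp1 were also among the 5 highest, at 2530 and 2162 CPM per kilobase. The lowest were 2.37 CPM per kilobase ± 0.904 (SD, n = 11) for Rpl23a and 2.38 ± 0.705 (SD, n = 11) for Rps6. Rpl24 and Rps13, also among the 5 lowest, were at 3.16 and 5.18 CPM per kilobase. These levels moved with the uniqueness of the sequence. The median was 23.5 CPM per kilobase over the 27 genes with under 25% of windows unique, 195 over the 41 genes with 25 to 75%, and 430 over the 9 genes with 75% or more. This share came from 1 transcript per gene and depends on which was taken. Windows shared with a gene overlapping at the same place also counted as not unique. Reads with a mapping quality under 10 were not counted by the authors, so the levels are those of reads placed with confidence and not of the whole mRNA. Reads over exons of 2 genes are also left out by the counting tool's default. Such bases were 66.2% of the exon bases of Rpl35, 62.3% of those of Rpl23a and 47.0% of those of Rpl24, the 3 largest shares, and 26.7% of those of Rpl5. Rpl35, with only 4.91% of its windows unique, was still counted at 224 CPM per kilobase.

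The summed level of the 77 genes averaged 39751 CPM ± 6078 (SD, n = 5) over controls, against 46598 CPM ± 5356 (SD, n = 6) over mutants. In controls 1 to 5 the sums were 34829.5, 41147, 35046, 38139 and 49594 CPM, and in mutants 1 to 6 they were 42814, 54908, 47114, 50679, 41167 and 42907 CPM. The groups overlapped, because control 5 was above 4 of the 6 mutants. Control 5 had the highest level of the controls for 74 of the 77 genes, and mutant 2 had the highest level of the mutants for 57. Without control 5, every mutant was above the remaining controls in the summed level. Mutant 5 at 41167 CPM and control 2 at 41147 CPM were nearly equal. For 27 of the 77 single genes, every mutant was also above controls 1 to 4. The share of all genes for which this held was not counted. Small and large subunit genes moved together. The ratio of their sums was 0.791 ± 0.00514 (SD, n = 5) in controls and 0.801 ± 0.00903 (SD, n = 6) in mutants. In bulk tissue, fewer cells of a type and less RNA per cell cannot be told apart, and the same holds for more.

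**Figure D1:**
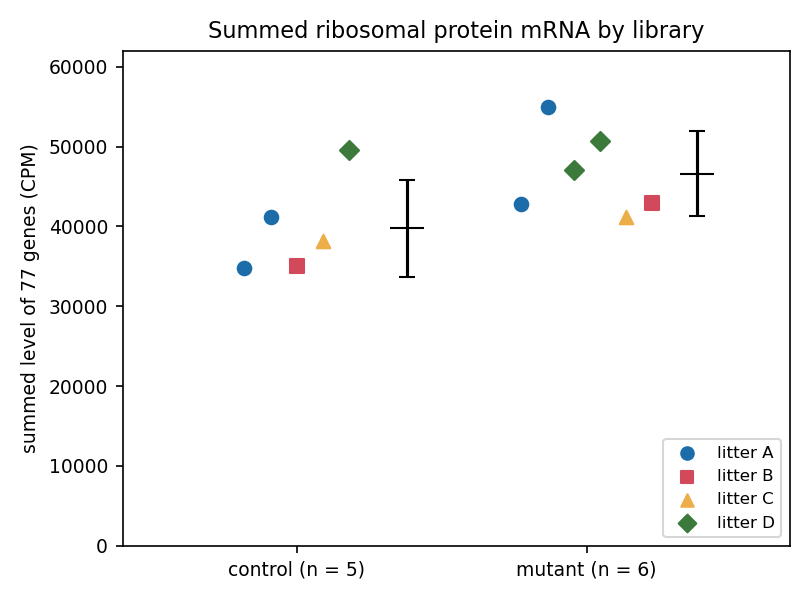
Summed level of the 77 tested ribosomal protein genes in each library (vertical axis, CPM), with controls at left and mutants at right. Shapes and colours mark the litter, and the bar gives the mean and SD of each group. Control 5, of litter D, lies at 49594 CPM among the mutants, and mutant 2, of litter A, is highest at 54908 CPM.

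In mutants, 74 of the 77 genes had a higher fitted level than in controls, and 3 a lower one. None passed an adjusted p of 0.05. The median log2 fold change was 0.24 (a fold of 1.18), beside 0.0038 over all 15821 genes tested, and the quartiles were 0.17 and 0.29. When libraries were instead scaled to other short, abundant genes, an alternative added after seeing the data, all genes shifted down together, to a median of -0.22 over all genes tested. On that scale 42 of 77 were above 0 and their median was 0.02. With edgeR's quasi-likelihood test and litter as a block, 0 of 77 were called, while 2.18% of all genes tested were, 0.702% higher and 1.48% lower. At an unadjusted p under 0.05, 44 of 77 were higher, beside 9.84% of all genes, and 1 was lower, beside 11.5%. A log2 fold change above 0 was found for 96.1% of the 77 genes and for 50.7% of all genes. In no gene of the 77 did the groups separate, whereas every mutant was above every control in 1.29% of all genes and below in 1.3%. DESeq2 called 13 of the 77 higher and 1, Rpl5, lower, beside 1194 of all 15821 genes in either direction. Limma-voom called only Rps13, which was higher, beside 439 of all genes. Leaving out control 5 gave 18 calls, all higher, beside 850 of 15714 genes tested in either direction. Leaving out no other single library gave any. Over all genes tested those fits called 279 without mutant 2 and only 1 to 15 otherwise.

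**Figure D2:**
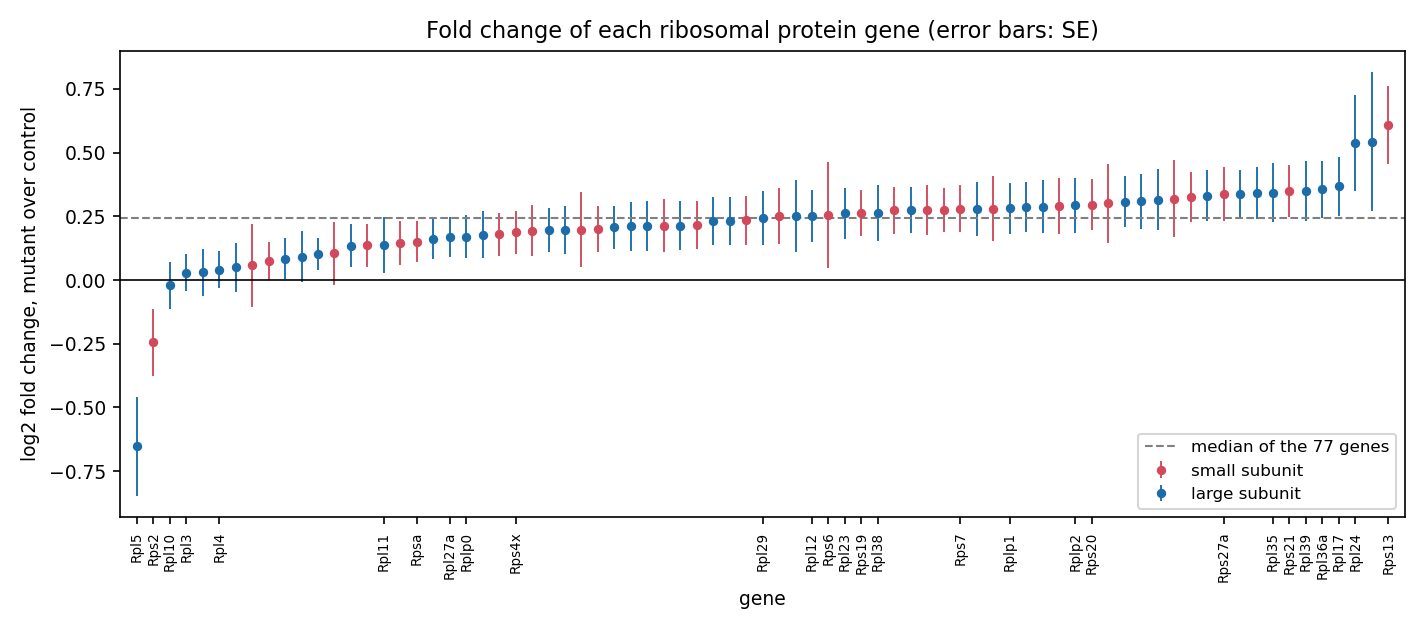
Log2 fold change of each of the 77 genes, mutant over control (vertical axis), with its SE from edgeR, ordered from lowest to highest. The dashed line is the median of 0.24, colours mark the subunit, and most genes described in the text are named. Rpl5 and Rps2 lie apart at the low end, and Rps13, Rpl23a and Rpl24 at the high end, while 63 genes lie between 0.1 and 0.4. With scaling to other short, abundant genes, the median is 0.02.

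The 4 genes of the stalk, the flexible arm of the large subunit that recruits elongation factors, had log2 fold changes of 0.17 to 0.29. Rplp0 is the base of the stalk. It was at 2134, 2584, 2095, 2344 and 3144 CPM in controls 1 to 5, and at 2541, 3105, 2953, 3255, 2576 and 2557 CPM in mutants 1 to 6. Its log2 fold change was 0.17 (SE 0.09, adjusted p = 0.274 by edgeR), and only control 5 reached the upper mutants. Rplp1 and Rplp2, which hang from Rplp0 as dimers, had values of 0.28 (SE 0.10, adjusted p = 0.139 by edgeR) and 0.29 (SE 0.11, adjusted p = 0.150). Rpl12, which binds beside Rplp0, had 0.25 (edgeR adjusted p = 0.183). Of these, Rplp0 turned to -0.06 with scaling to other short, abundant genes.

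The 9 proteins named here around the exit of the nascent chain all had a positive log2 fold change, with a median of 0.32 and 0 called, and 7 of 9 did with scaling to other short, abundant genes. Rpl4 lines the exit tunnel and was lowest at 0.04 (SE 0.07, adjusted p = 0.797 by edgeR). It was at 3077, 3548, 3257, 3550 and 4126 CPM in controls 1 to 5, and at 3384, 3854, 3749, 4054, 3494 and 3484 CPM in mutants 1 to 6. The mutants lay within the range of the controls. Rpl39, a small protein in the tunnel wall, was at 98.6, 126, 97.4, 108 and 160 CPM in controls 1 to 5. In mutants 1 to 6 it was at 137, 192, 149, 162, 131 and 144 CPM. Every mutant was above controls 1 to 4, with a log2 fold change of 0.35 (SE 0.12, adjusted p = 0.120 by edgeR). Rpl35 and Rpl17, also at the exit, had log2 fold changes of 0.34 and 0.37 (edgeR adjusted p = 0.122 and 0.0971).

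Of the 8 genes with known mouse mutants of patterning, skeleton or pigment, all had a positive log2 fold change, or 7 of 8 with scaling to other short genes, with a median of 0.26 and 0 called. Rpl38 is the gene of the tail-short mutant, with homeotic changes of the axial skeleton. It was at 31.8, 32.7, 24.8, 30.4 and 48.1 CPM in controls 1 to 5, and at 37.5, 50.9, 41.7, 48.3, 35.2 and 33.7 CPM in mutants 1 to 6. On the log2 scale the difference was 0.26 (SE 0.11, adjusted p = 0.197 by edgeR), and again control 5 lay within the upper mutants. Rpl24, the gene of the belly spot and tail mutant, had 0.54 (SE 0.19, adjusted p = 0.132 by edgeR) at a mean of only 3.26 CPM. Rps19, Rps20, Rps7 and Rpl29 had log2 fold changes of 0.26, 0.30, 0.28 and 0.24. Rpl27a, the gene of the sooty foot ataxia mutant, had 0.17 (edgeR adjusted p = 0.237), and Rps6 had 0.26 (edgeR adjusted p = 0.520).

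In the head of the small subunit, all 14 genes tested had a positive log2 fold change, from 0.06 for Rps12 to 0.34 for Rps27a, but 5 of 14 did with scaling to other short genes. The medians were 0.20 and -0.03. None was called, and 6 of the 14 had an unadjusted p under 0.05. Rps27a, which is made as a fusion with ubiquitin, was at 46.6 to 51.8 CPM in controls 1 to 4 and at 80.2 CPM in control 5. Mutants were at 62.4 to 87.8 CPM, above controls 1 to 4 and on both sides of control 5. Rpsa, a small subunit protein once described as a laminin receptor, had a log2 fold change of 0.15 (SE 0.08, adjusted p = 0.311 by edgeR). Among the 4 genes on the X chromosome, Rpl36a, Rpl39 and Rps4x had 0.36, 0.35 and 0.19, and Rpl10 had -0.02. Of the 19 genes listed for Diamond-Blackfan anaemia, 18 had a positive log2 fold change, or 13 with scaling to other short genes, with a median of 0.27 and 0 called.

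Rpl5 was the exception among them. Rpl5 and Rpl11 form a particle with 5S ribosomal RNA, which can bind the ubiquitin ligase Mdm2 when ribosome assembly fails. Rpl5 was at 45.4, 38.3, 29.9, 39.5 and 23.5 CPM in controls 1 to 5, and at 21.2, 13.0, 16.5, 21.8, 37.9 and 21.8 CPM in mutants 1 to 6. Mutant 5 lay among the controls and control 5 near the mutants. The log2 fold change was -0.65 (SE 0.19, adjusted p = 0.0875 by edgeR), and the mutants lay lower in all 4 litters. Rpl5 passed the threshold in DESeq2 (adjusted p = 0.00875) and in edgeR with no filter on low counts (adjusted p = 6.8e-07). It did not in limma-voom (adjusted p = 0.0780), and without litter A its log2 fold change was -0.27. Rpl11 was at 17.3 to 29.9 CPM in controls and 23.6 to 28.5 CPM in mutants, with a log2 fold change of 0.14 (edgeR adjusted p = 0.509). Rpl23, which also binds Mdm2, had 0.26 (edgeR adjusted p = 0.168). In a list of 5 genes of the p53 pathway, Ccng1 rose with a log2 fold change of 1.48 (edgeR adjusted p = 0.000407) and Cdkn1a with 1.38 (edgeR adjusted p = 0.0291). With each library left out in turn, Ccng1 was called in all 11 fits and Cdkn1a in 3. Most of these fits called only 1 to 15 of all genes tested. Mdm2 itself had 0.09 (edgeR adjusted p = 0.557) and Trp53 -0.10 (edgeR adjusted p = 0.418).

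Rps2, at the mRNA entry of the small subunit, was at 294.7, 240.4, 235.4, 220.8 and 185.1 CPM in controls 1 to 5. In mutants 1 to 6 it was at 199, 180, 178, 176, 299 and 151 CPM. Mutant 5 was the highest of the 11 libraries, and the log2 fold change was -0.24 (SE 0.13, adjusted p = 0.307 by edgeR). As for Rpl5, few windows of its mRNA are unique, and transcripts of 71 other genes share at least 1 of them. Rpl10, which joins the large subunit late in its assembly, was at 32.4 to 48.3 CPM in controls and 29.8 to 43.4 CPM in mutants, with a log2 fold change of -0.02 (SE 0.09, adjusted p = 0.925 by edgeR). Rpl3, Rpl10a and Rpl4 complete the 6 lowest, at 0.03, 0.03 and 0.04.

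Rps13, which lies at the bridge between the subunits, was nearest to the threshold. It was at 12.2, 11.9, 9.11, 8.08 and 13.3 CPM in controls 1 to 5, and at 16.8, 19.3, 12.2, 15.2, 19.0 and 16.3 CPM in mutants 1 to 6. All mutants but mutant 3 were above every control. The log2 fold change was 0.61 (SE 0.15, adjusted p = 0.0555 by edgeR), and it was higher in mutants in all 4 litters. The adjusted p ran from 0.0220 without control 5 to 0.218 when each library was left out in turn. By adjusted p, Rpl36 (0.0714), Rps21 (0.0871) and Rpl5 (0.0875) came next in edgeR. By size of the log2 fold change, among genes with a mean of at least 10 CPM, it was followed by Rpl17, Rpl36a, Rpl39, Rps21 and Rpl35, at 0.37, 0.36, 0.35, 0.35 and 0.34.

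The genotypes were also compared within each litter. In litter A, 72 of the 77 genes were higher in mutants, with a median difference of 0.39 in mean log2 CPM. In litter B, 74 were higher with a median of 0.38, and in litter C, 73 with a median of 0.15. In litter D, 26 of 77 were higher and the median was -0.03. The medians over all genes in the same litters lay between -0.01 and 0.01. The summed level was 28.6% higher in mutants in litter A, 22.4% in litter B and 7.94% in litter C, and it was -1.41% in litter D. In all 4 litters, Rps21 differed by 0.49, 0.53, 0.31 and 0.03 from A to D, and Rpl38 by 0.44, 0.44, 0.21 and -0.10. Rps13 differed most in litter C, by 1.22, beside 0.57, 0.83 and 0.03 in A, B and D.

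**Figure D3:**
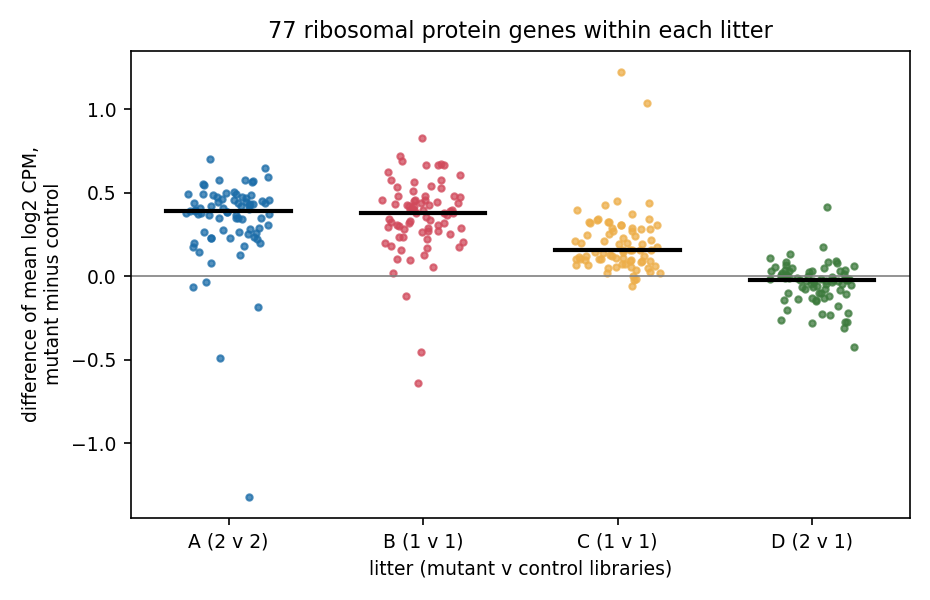
Difference in mean log2 CPM, mutant minus control, of each of the 77 genes (points) within each litter, with the median as a bar. The number of mutant and control libraries stands under each litter, and sideways spread within a litter has no meaning. The medians are 0.39, 0.38, 0.15 and -0.03 in litters A to D.

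Litter D has the control with the highest sum, control 5, and litters B and C have 1 library of each genotype, so a litter and a library cannot be told apart there. The interaction of genotype and litter gave 0 calls among the 77 genes (lowest edgeR adjusted p = 0.950), and 5 had an unadjusted p under 0.05. Over all genes 3.82% did, and 0 passed the adjusted threshold. Differences among litters gave 0 calls (lowest edgeR adjusted p = 0.199) and 16 genes at an unadjusted p under 0.05, beside 0.0885% and 13.5% of all genes. Across the litters, 25 of the 77 genes were higher in mutants in all 4, beside 12.6% of all genes, and 44 in 3. Only Rpl5 was lower in all 4, beside 13.5% of all genes. DESeq2 and limma-voom were not run on the interaction.

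Across the 11 libraries the genes moved together. The median Pearson r over 2926 pairs of genes was 0.872 on log2 CPM and the median Spearman rho was 0.873. Without control 3 and mutant 2, the libraries farthest from the median of the mean level, these were 0.849 and 0.817 over 9 libraries. After litter and genotype were removed by a linear fit, the median r was 0.844. The first principal component held 83.4% of the variance of the 77 standardised genes, beside 29.2% over all genes tested. Against the mean of the remaining members, the median r of a gene was 0.943. These correlations describe 11 libraries that share depth, scaling and litters, and genes are not independent replicates.

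**Figure D4:**
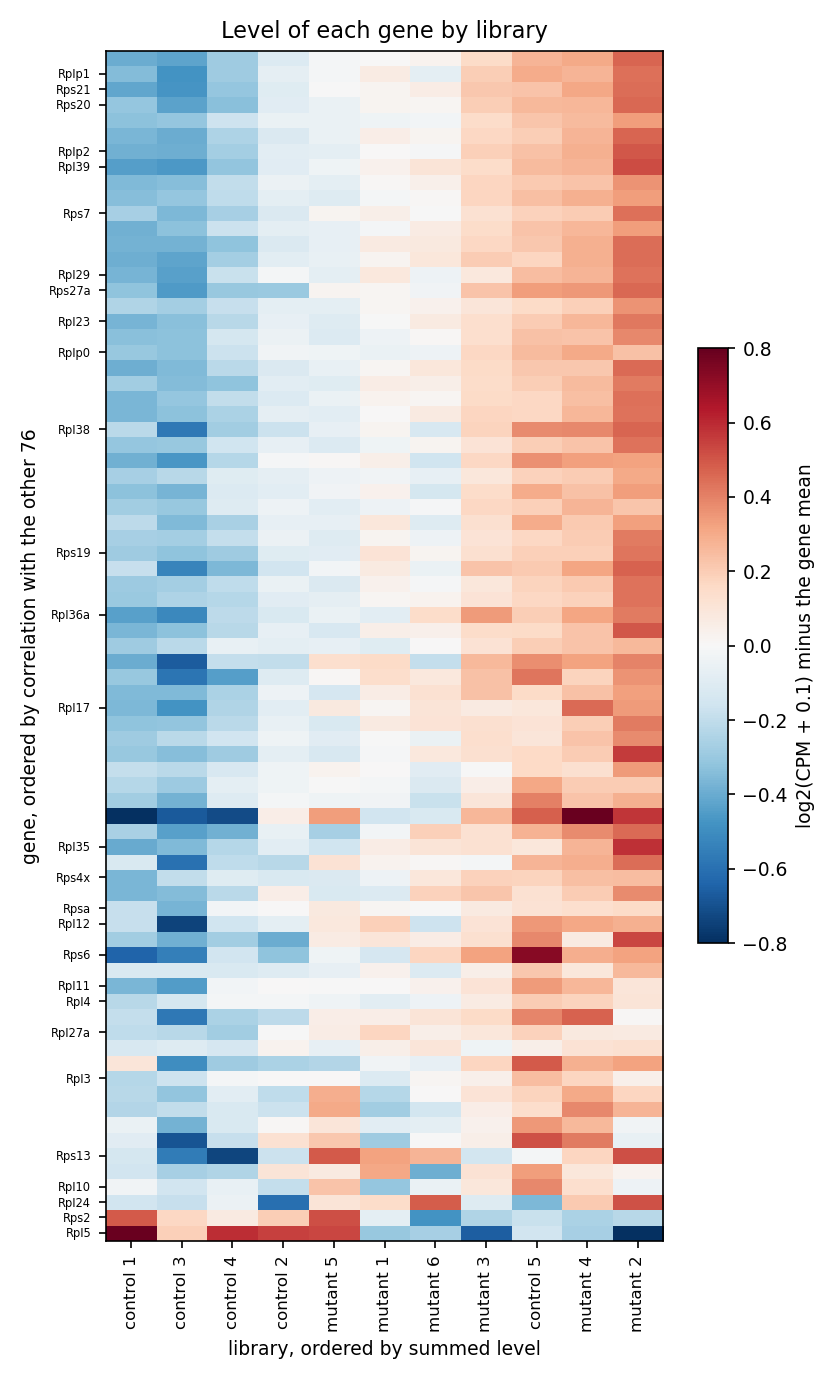
Level of each of the 77 genes (vertical) in each library (horizontal, ordered by summed level), as log2 of CPM plus 0.1 minus the mean of the gene. Red is above the mean and blue below it, values past the ends of the scale take the end colour, and most genes described in the text are named. Most genes run from blue to red in the same order of libraries, with control 5 among the mutants, while Rps2 and Rpl5 at the bottom run the other way.

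The exceptions in fold change were also those in co-variation. Rpl5 had an r of -0.77 with the mean of the rest, and Rps2 of -0.62. With litter and genotype removed these were -0.63 and -0.58. Rpl13, Rpl24 and Rpl10 were the next lowest, at 0.16, 0.38 and 0.50 after that removal. For 62 of the 77 genes it was over 0.8, as it was for 7.36% of the 15744 other genes with the mean of the 77. Outside the members, the 8 genes most alike by this measure, over 11 libraries and among genes with a mean of at least 10 CPM, began with Gnb2l1 at 0.99, the gene of the small subunit protein RACK1. After it came Srp19, a protein of the signal recognition particle, Timm10, Higd1a, Nhp2, Naca, Sac3d1 and Erh, at 0.98 to 0.99. The log2 fold changes of these 8 ran from 0.08 for Gnb2l1 to 0.35 for Sac3d1, and none was called.

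Other short, abundant genes had fold changes of the same sign. Among genes with a mean of at least 100 CPM, the 125 other genes with under 1 kb of exon had a median log2 fold change of 0.23, and 98.4% of them were above 0. The 16 ribosomal protein genes of that class had 0.26. At 1 to 2 kb the medians were 0.11 for 390 other genes and 0.21 for 17 ribosomal protein genes. At 2 to 4 kb they were 9.9e-05 for 718 and 0.21 for 11, and over 4 kb they were -0.07 for 816 and 0.28 for 4. In the longer classes the 2 groups thus lay further apart than in the shortest. The classes, though, use exon length, which joins the exons of all annotated transcripts of a gene. The 4 ribosomal protein genes over 4 kb were Rps15a, Rps19, Rps3 and Rps20. In the 1 transcript per gene used for uniqueness they had 640, 633, 1908 and 3706 bases. That length was not measured for other genes, so the classes do not compare transcripts of like length. Fold changes of other genes also moved with the longest run of T in any annotated transcript. With a run of 18 bases or more the median was -0.21 over 956 other genes, and it was 0.27 over the 3 ribosomal protein genes, Rps3, Rps7 and Rps24. Only for Rps3 was that run in a protein-coding transcript, and for Rps7 and Rps24 it was in a transcript with a retained intron. With runs of at most 8 bases it was 0.03 over 9404 other genes and 0.25 over 54 ribosomal protein genes. The part of transcript length in the result was not tested further.

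**Figure D5:**
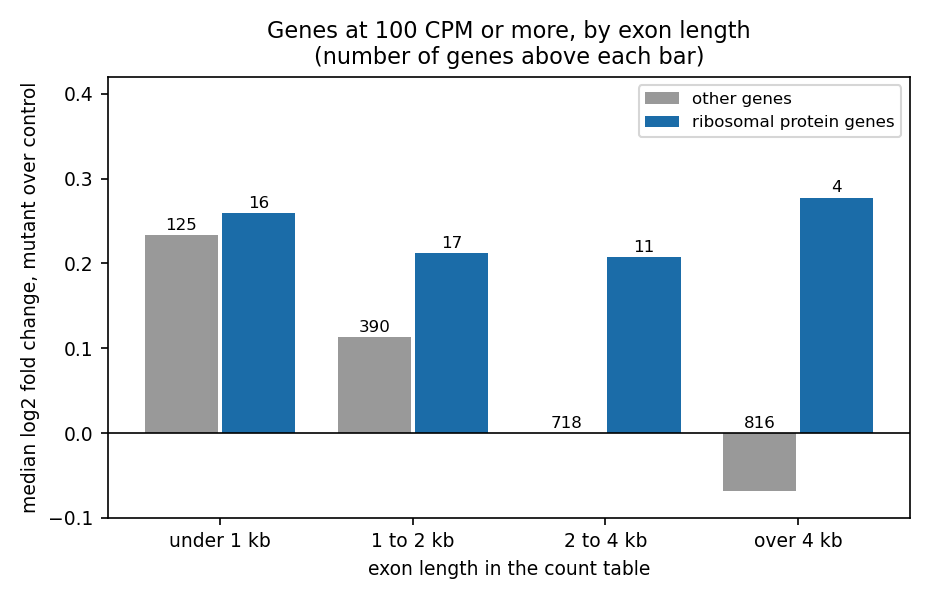
Median log2 fold change, mutant over control (vertical axis), of genes with a mean of at least 100 CPM, by exon length in the count table. That length joins the exons of all transcripts of a gene and is not the length of 1 mRNA. Grey bars are other genes, blue bars are ribosomal protein genes, and the number of genes stands at each bar. Other genes go from 0.23 under 1 kb to -0.07 over 4 kb, while ribosomal protein genes lie between 0.21 and 0.28. When libraries are scaled to the other genes under 1 kb, the median of all 77 is 0.02.

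That scaling shifts every gene by about the same amount, so the distance between the 77 genes and all genes stayed at 0.24, and its counts above 0 give each list's place against short genes and no more. Most rows for their pseudogenes gave the same sign. As these are copies of the mRNAs, reads of the parent genes placed there cannot be told apart. The table has 269 such rows, of which 225 had reads and 56 were tested. Of these 47 were higher in mutants, beside 50.7% of all genes and 68.5% of genes outside the 77 with under 1 kb of exon. Their median was 0.28 on the log2 scale with 0 called, and the summed mean level of the 56 rows was 188 CPM. By uniqueness, the 3 genes with a negative log2 fold change all had under 25% of windows unique. In that class 24 of 27 were higher, and in the 2 more unique classes all 41 and all 9 were.

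Genes that work with the ribosome had smaller medians, and each of their medians was below 0 with scaling to other short genes. A list of 17 genes held elongation factors and other genes whose transcripts carry a TOP motif, among them the non-coding Gas5. Of these 10 had a higher fitted level in mutants, with a median log2 fold change of 0.06. Eef1a1, the factor that brings aminoacyl-tRNA, had -0.04, Eef2, the translocation factor, -0.12, and Tpt1 -0.36, with edgeR adjusted p of 0.771, 0.336 and 0.222. Eif3f alone was called, with 0.40 (edgeR adjusted p = 0.0454). It averaged 134 CPM ± 9.31 (SD, n = 5) over controls, against 178 CPM ± 23.0 (SD, n = 6) over mutants. Of 31 initiation genes, 18 were higher with a median of 0.02, and Eif3b rose by 0.32 (edgeR adjusted p = 0.0457). Both encode subunits of the initiation factor eIF3. With each library left out in turn Eif3f was called in 1 of 11 fits and Eif3b in 2, where most fits called only 1 to 15 of all genes. Of 17 genes of RNA polymerase I, which makes ribosomal RNA, 11 were higher with a median of 0.06 and 0 called. Of 53 ribosome assembly genes tested, 31 were higher with a median of 0.04 and 0 called, and Nhp2, a protein of box H/ACA particles, had 0.33 (edgeR adjusted p = 0.104).

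Some ribosomal proteins and close relatives have symbols outside the pattern. Of 9 in the table, 8 were higher, or 3 with scaling to other short genes, at a median of 0.22 on the log2 scale with 0 called. Fau, the fusion gene of Rps30, had 0.22 and Rps3a1 0.15. Rps27l, a paralogue of Rps27 left out by the rule, averaged 392 CPM ± 81.9 (SD, n = 5) over controls, against 518 CPM ± 73.6 (SD, n = 6) over mutants, with 0.38 (edgeR adjusted p = 0.0919). The 4 members without a test had few or no counted reads. Rpl10l had 0 reads in all 11 libraries, which allows up to 3 reads in each. Rpl3l, Rpl39l and Rpl6l, the last a processed pseudogene in the annotation, had 7, 41 and 33 reads in all. Only 23.6% of the windows of Rpl6l were unique, so its count does not show the level of its RNA. Rpl3l and Rpl10l are known from muscle and testis. Rps4l, a further paralogue, was tested and had 0.08 (edgeR adjusted p = 0.616).

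Gmnn, the targeted gene, was at 139 to 239 CPM in controls and 99.5 to 138 CPM in mutants, with no overlap. Its log2 fold change was -0.67 (edgeR adjusted p = 0.0291), a call lost when any of 8 of the 11 libraries was left out. With 1 library left out the log2 fold change ran from -0.75 to -0.57. Fits without a library other than control 5 or mutant 2 called only 1 to 15 of all genes tested. Ccng1 was still called in all 11 fits without 1 library, and the muscle gene Myl1 in 0, also without control 5 or mutant 2. Why calls were lost was not tested. Controls had 14777833 to 19733288 counts per library, and mutants 14721181 to 17034741. The ribosomal protein genes took 3.55 to 4.79% of the reads in controls and 4.09 to 5.23% in mutants. All 8 limb mesenchyme markers were read, at sums of 691 to 908 CPM in controls and 680.0 to 805 CPM in mutants. Of these 5 had a positive log2 fold change, and Lhx9 was called lower at -0.50 (edgeR adjusted p = 0.0406), in 2 of the 11 fits without 1 library. Tbx5, at -0.28 (edgeR adjusted p = 0.134), was lower in all 4 litters. Of 4 neural tube markers 1 was at 0 reads, and the sum was at most 1.12 CPM. Of the red cell markers 10 of 10 had a positive log2 fold change, with a median of 0.61 and 0 called. All 10 stayed above 0 with scaling to other short genes. Their summed level was 13120 to 33664 CPM in controls and 16433 to 57349 CPM in mutants. Haemoglobin genes took 1.34 to 3.30% of reads in controls and 1.69 to 5.44% in mutants, highest in control 2 and mutant 2. Mutant 2 was also the highest library in the ribosomal protein sum. Control 5, the highest control in that sum, came after control 2 in haemoglobin reads, at 2.20%, and control 2 came after control 5 in the sum. Mutant 4, the mutant next to mutant 2 in the sum, had 2.09% haemoglobin reads, below most other mutants. Mitochondrial genes took 1.57 to 2.01% and 1.74 to 2.21%. Of 8 muscle markers 6 were lower, with Acta1 and Myl1 called (edgeR adjusted p = 0.0353 and 0.0452) in 2 and 0 of the 11 fits without 1 library. The summed muscle level was 42.7 to 98.6 CPM in controls and 38.5 to 74.1 CPM in mutants. Of 7 macrophage markers 6 were higher, at sums of 5.67 to 22.1 CPM and 8.08 to 28.5 CPM. The part of these cells in the result was not tested. Nothing in the labels says that the libraries of a group are other than separate embryos. With litter as a block, the p-values measure the spread between embryos that remains once litter and genotype are fitted.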

How the data were processed

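Ribosomal RNA-depleted total RNA of 11 forelimb bud samples was sequenced, per the labels. The deposited table holds unnormalized counts for each gene name. The authors obtained them from featureCounts 1.4.6-p4 on GENCODE M9 exons with a mapping quality of at least 10 and no strand option, per the file headers. STAR 2.5.4b and mm10 are named in the submitters' processing notes. The header lists 12 alignment files, and 11 libraries were analysed here. Genes were kept by filterByExpr, which left 15821 genes with 99.9% of counts, scaled by TMM and tested in edgeR 4.0.16 (R 4.3.3) with the two-sided quasi-likelihood F test on litter and genotype. P-values were adjusted by Benjamini-Hochberg over all genes tested, with a threshold of 0.05. The biological coefficient of variation was 16.3%. CPM use TMM-scaled totals, and log2 CPM a prior count of 2. The SE is the log2 fold change divided by the root of F. The fit was tested on simulated counts.

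Groups and litters come from the sample titles, which give same-litter pairing. Members, lists and the rule for named genes (role groups, the 6 largest and 6 smallest fold changes at 10 CPM or more, the 5 highest and 5 lowest levels per kilobase, the 8 genes most alike) were chosen with earlier results of these data known. Uniqueness used 50-base windows of 1 transcript per gene against all GENCODE M21 transcripts on both strands. The read length is not given in the sources used here. Protein sequences were not used here. Values of some single genes are not reported here. Alternatives were RLE and upper-quartile scaling, scaling without the members, other filters, DESeq2 1.42.0, limma-voom (limma 3.58.1), no block, haemoglobin, mitochondrial and ribosomal RNA genes removed, and each library or litter left out. Scaling to other short genes, and leaving out control 5 and mutant 2 together, were added after seeing the data.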

Additional observations from a re-analysis of the deposited data

Results flagged for a closer look

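Dixon's criterion was applied to 34 measures in each of the 2 groups, 68 groups in all, of which chance would give about 3.4, or 1 in 20. It picked 4. Rpl10 was at 48.3 CPM in control 5, with the remaining controls between 32.4 and 36.2 CPM. Rps27a was at 80.2 CPM in control 5, with the rest between 46.6 and 51.8 CPM. Rpl27a was at 85.3 CPM in mutant 1, with the rest of the mutants between 78.0 and 80.5 CPM. Haemoglobin genes took 5.44% of the reads of mutant 2 and 1.69 to 2.76% of those of the remaining mutants.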

How the results depend on the processing

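The count of ribosomal protein genes called, 0 in edgeR with litter as a block, was 31 with no filter on low counts, 1 with a filter of 1 CPM in 5 libraries, 14 in DESeq2, 1 in limma-voom and 2 without litter D. It was 5 without control 5 and mutant 2, an alternative added after seeing the data. The calls over all genes tested moved too, from 345 of 15821 with litter as a block. They were 1566 of 29256 with no filter and 550 of 13403 with 1 CPM in 5 libraries. DESeq2 called 1194 and limma-voom 439 of 15821. Without litter D 148 of 15529 were called, and without control 5 and mutant 2 533 of 15596. The cause was not tested. With each library left out in turn, the count of ribosomal protein genes called ran from 0 to 18. Over all genes tested, those fits called 850 without control 5, 279 without mutant 2 and 1 to 15 otherwise. The count higher ran from 71 to 75 and the count higher at an unadjusted p under 0.05 from 24 to 60. The median ran from 0.16 to 0.32 and the log2 ratio of summed levels from 0.17 to 0.32. The count at an unadjusted p, 44, fell by over 1.5 times to 25 without control 1, 24 without control 3, 27 without mutant 2, 24 without mutant 6, 14 without litter A and 22 without litter B. Scaling to other genes under 1 kb at 100 CPM or more, also added later, gave 42 genes higher, 1 of them at an unadjusted p under 0.05, a median of 0.018 and a log2 ratio of summed levels of -0.014. There Rpl27a was at -0.048, Rplp0 at -0.056, Rpl11 at -0.082, Rpsa at -0.075, Rps4x at -0.041, Rpl3 at -0.20 and Rpl4 at -0.18. Rpl10 was at 0.018 with upper-quartile scaling, 0.0155 with no replicate block, 0.0031 without litter A, 0.067 without litter D and 0.035 without control 5 and mutant 2. Rpl4 was at -0.0103 without litter A and Rpl3 at -0.0029 without litter B. With 1 library left out, Rpl10 ran from -0.091 to 0.067, Rpl3 from -0.0076 to 0.086 and Rpl4 from -0.0026 to 0.083. Without the litter block, 0 ribosomal protein genes were called, 75 were higher, and 16 of 14566 genes tested were called against 345 of 15821 with it, the filter on low counts following the design. Depth limits Rpl23a, Rpl24 and Rps6, at means of 2.01, 3.26 and 3.78 CPM.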
